A study of Mus musculus with 7 samples.

Results

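The genes described here are 9 genes of fatty acid oxidation: the carnitine palmitoyltransferases Cpt1a and Cpt2, the acyl-CoA dehydrogenases Acadm, Acadl and Acadvl, the trifunctional protein subunits Hadha and Hadhb, the nuclear receptor Ppara and the pyruvate dehydrogenase kinase Pdk4. They were chosen by name from the pathway, and all 9 were measured, by 17 probe sets, among 18193 genes on Affymetrix 430 2.0 arrays. None of the 9 encodes an enzyme of the peroxisome, so peroxisomal genes are given from a separate list. RNA came from luminal cells, the secretory epithelial cells of the prostate gland, which were sorted from mouse prostates as CD49f positive and negative for Sca1, CD31, CD45 and Ter119. Wild-type cells (WT) were measured on 3 arrays, named A to C, and T-ETV1 cells on 4, named A to D. The T-ETV1 allele places a human cDNA of the ETS transcription factor ETV1 behind the endogenous mouse Tmprss2 promoter. Only the T-ETV1 cells were also sorted as GFP positive, so that a difference by genotype and one by this gate cannot be told apart. The labels used here give neither the age nor the strain of the mice, and do not say whether an array stands for a single mouse or a pool. If the arrays of a group are not from separate mice, the p-values measure technical spread only.

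Fatty acids are burnt in the mitochondrion by beta-oxidation, a cycle that removes acetyl-CoA units from the chain. Long chains enter as carnitine esters, made by Cpt1a on the outer membrane and turned back into acyl-CoA by Cpt2 on the inner one. Acadvl, Acadl and Acadm, named for very long, long and medium chains, carry out the first oxidation of each turn, and the trifunctional protein of Hadha and Hadhb carries out the remaining steps for long chains. Ppara is a receptor for fatty acids that switches on many genes of this pathway, and Pdk4, a well-known target of it, inhibits pyruvate dehydrogenase and so spares glucose while fat is burnt. Prostate luminal cells are known for secreting citrate in place of oxidising it fully.

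RefSeq promoter sequences (build GRCm38.p6, from 250 bases before to 50 after a gene's start) were at hand for all 9 genes. The first printed here is that of Cpt2, since it is the member whose window holds the ETS site CCGGAAGT, a sequence of the kind that ETS factors such as ETV1 bind. That of Pdk4 is shown because Pdk4 was the member that varied most between arrays. The third is the stretch of 228 bases that the windows of Hadha and Hadhb share, since these genes lie head to head with starts 273 bases apart. Capitals mark the ETS site in Cpt2, a CCAAT box (on the reverse strand, so read as ATTGG) in Pdk4 and a GC box, GGGCGG, in the shared stretch. Each is written 5′ to 3′.
Cpt2 (chr4:107923540-107923839, minus strand): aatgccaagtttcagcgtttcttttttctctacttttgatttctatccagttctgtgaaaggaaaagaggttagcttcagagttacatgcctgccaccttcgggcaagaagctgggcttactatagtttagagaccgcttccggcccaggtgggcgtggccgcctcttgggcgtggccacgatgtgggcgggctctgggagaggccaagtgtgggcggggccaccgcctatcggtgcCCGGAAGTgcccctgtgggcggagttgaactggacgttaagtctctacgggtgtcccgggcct
Pdk4 (chr6:5496229-5496528, minus strand): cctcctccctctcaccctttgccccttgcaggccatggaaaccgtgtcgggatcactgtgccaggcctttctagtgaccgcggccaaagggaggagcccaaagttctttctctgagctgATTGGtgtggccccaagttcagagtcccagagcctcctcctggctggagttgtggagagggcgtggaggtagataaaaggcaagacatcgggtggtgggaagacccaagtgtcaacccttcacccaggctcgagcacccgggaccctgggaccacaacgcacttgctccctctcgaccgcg
Hadha and Hadhb (chr5:30155003-30155230, plus strand, read towards Hadhb): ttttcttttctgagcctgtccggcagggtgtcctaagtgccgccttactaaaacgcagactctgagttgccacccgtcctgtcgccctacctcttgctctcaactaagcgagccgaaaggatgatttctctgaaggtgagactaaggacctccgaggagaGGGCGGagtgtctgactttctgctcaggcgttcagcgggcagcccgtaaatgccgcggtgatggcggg

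Motifs were searched on both strands. The ETS site lay 13 bases before the start of Cpt2, and 3.89% of all 32851 promoters in the table held it. The nuclear receptor half-site AGGTCA was found in Acadm, 249 bases before the start, in Cpt1a, 94 bases before, and in Acadvl, 87 bases before, against 16.3% of all promoters. The full direct repeat to which PPAR binds, which is this half-site, any base and the half-site again, was in none of the 9 windows and in 0.0396% of all promoters. GC boxes were in 6 of the 9 windows (Cpt1a, Cpt2, Acadl, Hadha, Hadhb and Ppara) and in 35.7% of all promoters. The only one of Hadha, 188 bases before its start, is the box in the stretch shared with Hadhb. It lies 90 bases before the start of Hadhb, so these windows are not counted separately from each other. CCAAT was in Cpt1a and Pdk4 and in 37.4% of all promoters. These matches describe letters in a short window only.

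Array medians lay between an intensity of 48.5 and 73.7. The luminal markers fixed for this work, among them the keratins Krt8 and Krt18 and the secretory protein Pbsn, summed to between 72402 and 78302 on all 7 arrays. The arrays also held RNA of markers of other cell types, in amounts that differed between arrays. The 8 macrophage markers summed to 14898 in WT C and 7895 in T-ETV1 C and to between 246 and 653 on the other 5 arrays, and the 8 basal cell markers to 24347 and 21030 on the C arrays, against 3642 to 17134. In bulk RNA such a difference cannot be told apart as fewer cells of a type or less RNA per cell.

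No member passed the test between T-ETV1 and WT. Of the 18193 genes tested, 0 (0%) had a limma adjusted p under 0.05, and 1113 (6.12%) had an unadjusted p under 0.05. None of the 9 members was among the latter, and their smallest adjusted p was 0.848, for Hadha. Differences are given as log2(intensity + 16), T-ETV1 minus WT, with the standard error of the fit. The 7 enzymes lay between -0.26 (Acadm) and 0.04 (Cpt1a), 6 with a lower and 1 with a higher mean in T-ETV1. For the brightest probe set of each, which stood for its gene, the 95% confidence intervals lay within -0.62 and 0.43. On intensity + 16 this is at most 1.54-fold lower and 1.34-fold higher. These limits hold for the deposited scaling only: after median centring Cpt1a had 0.18 ± 0.17 and Cpt2 0.10 ± 0.22. Intervals of some dimmer probe sets of the enzymes reached further: -1.06 to 0.71 for Acadl, -0.25 to 0.83 for Cpt2 and -0.77 to -0.01 for Hadhb. The median difference of the 9 members was -0.07, beside -0.03 over all genes. After median centring of the arrays these medians were 0.06 and 0.11, and after quantile normalization -0.05 and 0.02, so the sign of the members' median depended on the scaling. Of the 9 members 1 had a higher mean in T-ETV1 as deposited, 4 after quantile normalization and 6 after median centring, where 44.4%, 54.0% and 67.8% of all genes did.

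**Figure D1:**
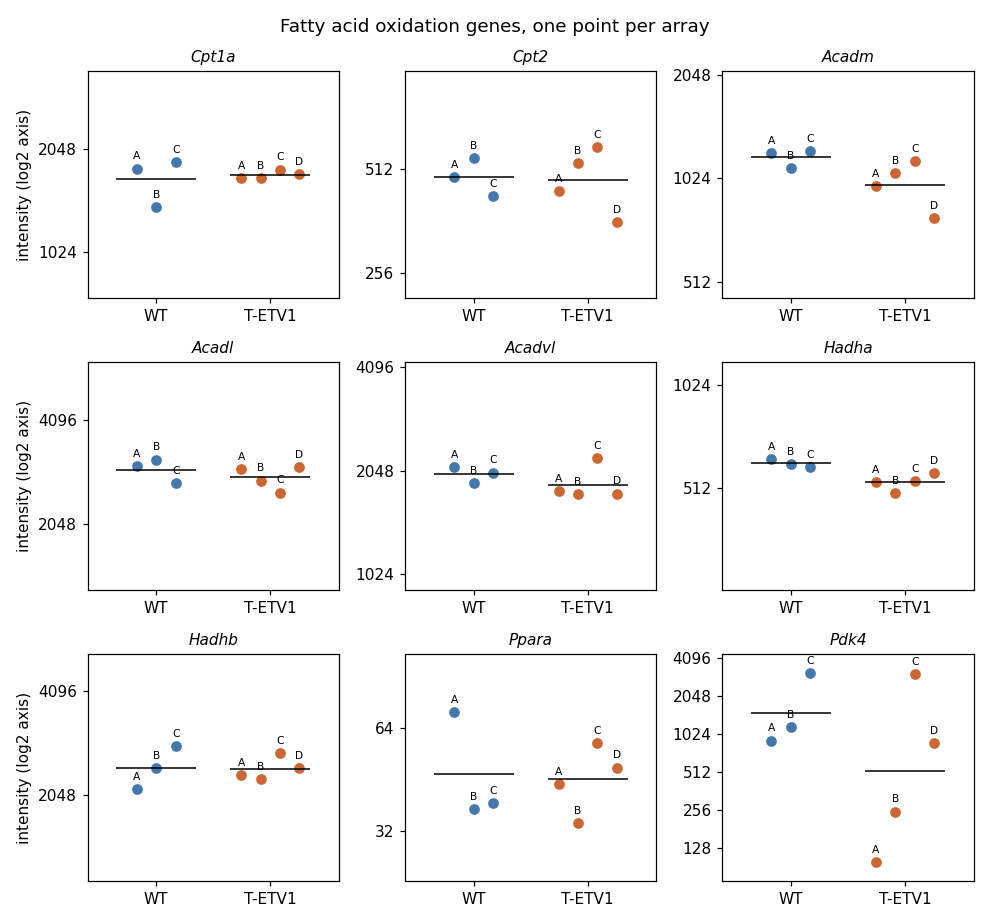
Intensity of each of the 9 genes (log2 axis, each panel with its own range) on the 3 WT and 4 T-ETV1 arrays, 1 point per array with its replicate letter; black lines are group means of the log2 values. By the brightest probe set of each gene, the 7 enzymes differed by at most 1.66-fold between any arrays. Pdk4 ranged 31.5-fold and was highest on array C of each group.

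Of the carnitine shuttle, Cpt1a, the enzyme that malonyl-CoA inhibits and that controls entry of long chains, had intensities of 1790, 1382 and 1872 on the WT arrays A, B and C. On the 4 T-ETV1 arrays it had 1680, 1678, 1778 and 1721. All 4 T-ETV1 values lay between the lowest and the highest WT value. The log2 difference was 0.04 ± 0.13, from 10.72 ± 0.23 (SD, n = 3) in WT to 10.76 ± 0.04 (SD, n = 4) in T-ETV1 (limma adjusted p = 0.985). The other probe sets of Cpt1a had 0.13 ± 0.17 and 0.02 ± 0.17. The first of these and the probe set that stands for the gene are of the x type, whose probes can match other transcripts. Cpt2, the inner membrane enzyme, had 487, 551 and 428 in WT and 443, 533, 595 and 359 in T-ETV1. This gene, whose promoter window holds the ETS site, had its lowest and its highest value both in T-ETV1, and the log2 difference was -0.04 ± 0.19 (adjusted p = 0.990). A dimmer probe set of Cpt2, between 66 and 140 on all arrays, had 0.29 ± 0.23.

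Of the acyl-CoA dehydrogenases, Acadm, the medium-chain enzyme, had the largest difference of the 7 enzymes. Its intensities were 1208, 1094 and 1230 on the WT arrays A, B and C and 971, 1061, 1146 and 782 on the T-ETV1 arrays A, B, C and D. T-ETV1 C lay above WT B, so the groups overlapped, and T-ETV1 D was the lowest array. The log2 difference was -0.26 ± 0.15, from 10.22 ± 0.09 (SD, n = 3) to 9.96 ± 0.23 (SD, n = 4) (limma adjusted p = 0.867). Without T-ETV1 D it was -0.15, and after median centring -0.12. Acadl, the long-chain enzyme, had 3018, 3147 and 2687 in WT and 2953, 2735, 2522 and 2998 in T-ETV1. Within each group array C was its lowest, and the difference was -0.07 ± 0.11 (adjusted p = 0.954). A second Acadl probe set was dim, with intensities between 4.65 and 41.6. Acadvl, the very-long-chain enzyme, had 2103, 1889 and 2026 in WT and 1791, 1755, 2231 and 1759 in T-ETV1. T-ETV1 A, B and D lay below all WT arrays while T-ETV1 C was the highest of the 7, and the difference was -0.10 ± 0.12 (adjusted p = 0.944). Acadl and Acadvl turned to 0.06 and 0.04 after median centring.

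Hadha, the subunit with the hydratase and the long-chain dehydrogenase activity, was the member whose groups did not overlap. It had 623, 603 and 592 on the WT arrays A, B and C and 534, 496, 538 and 568 on the T-ETV1 arrays A, B, C and D. Every T-ETV1 array lay below every WT array, though T-ETV1 D was close to WT C. The log2 difference was -0.18 ± 0.09, from 9.28 ± 0.04 (SD, n = 3) to 9.10 ± 0.08 (SD, n = 4) (limma adjusted p = 0.848). Groups that did not overlap with T-ETV1 lower were found in 710 of all 18193 genes (3.90%), and in either direction in 1150 (6.32%). Over all probe sets the share was 6.28%, against 1 of the 17 of the members. A single gene is thus no result about the members as a group. The groups of Hadha overlapped after quantile normalization (-0.10 ± 0.14) and after median centring (-0.04 ± 0.17).

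Hadhb, the thiolase subunit of the same protein, had 2129, 2450 and 2840 in WT and 2336, 2281, 2716 and 2454 in T-ETV1. The T-ETV1 arrays lay within the WT range, and the log2 difference was -0.01 ± 0.13 (limma adjusted p = 0.996). The x type probe set of Hadhb had 0.11 ± 0.12. The third one, between 113 and 205 on all arrays, had -0.39 ± 0.16, with an unadjusted p of 0.045 and an adjusted p of 0.820 over all probe sets. After median centring the groups of Hadhb did not overlap, with T-ETV1 higher (0.13), as in 5% of all genes under that scaling. The level of Hadha relative to Hadhb within an array is not moved by a constant factor per array, such as median centring applies, though quantile normalization can move it. It was compared after the values of both had been seen. Against the brightest Hadhb probe set the log2 ratio was -1.75, -1.99 and -2.23 on the WT arrays A, B and C. It was -2.10, -2.17, -2.30 and -2.08 on the T-ETV1 arrays A, B, C and D. The groups overlapped, the means differed by -0.17, and the exact two-sided permutation p was 0.286, where 0.0571 is the smallest that 3 against 4 arrays allow. Against the other Hadhb probe sets the differences were -0.29 (exact p = 0.114) and 0.21 (exact p = 0.171). Adjusted over these 3 comparisons the exact p-values were 0.286, 0.257 and 0.257. These tests leave the letters aside. Against the brightest Hadhb probe set T-ETV1 had the lower ratio in all 3 letter pairs, while against each of the other probe sets the C pair went the opposite way to A and B.

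**Figure D2:**
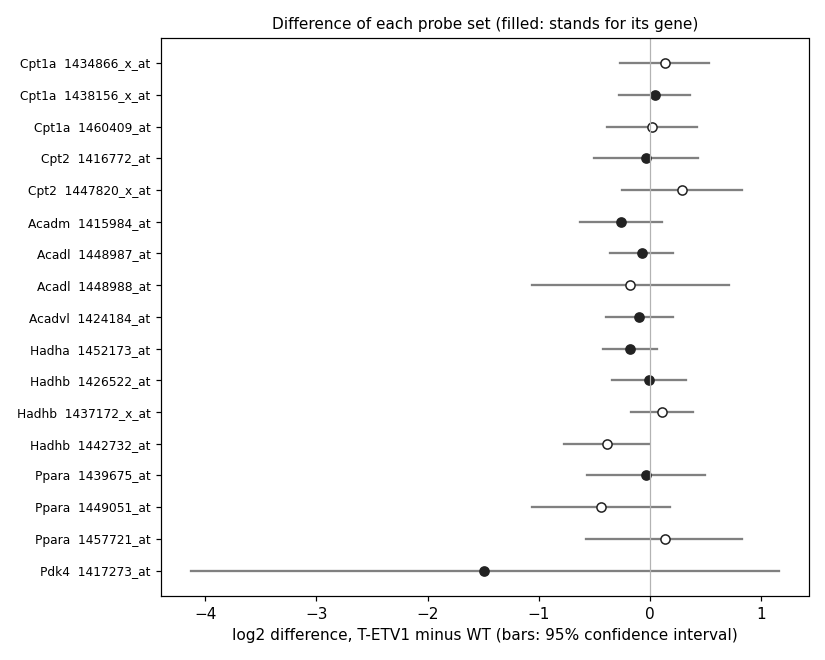
Log2 difference, T-ETV1 minus WT, of each of the 17 probe sets of the 9 genes, with 95% confidence intervals from the limma fit over all probe sets; filled points stand for their gene. The intervals of 16 probe sets contain 0, that of the dimmest Hadhb probe set ends at -0.01, and that of Pdk4 is the widest, from -4.13 to 1.16.

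By the brightest probe set of each, the 7 enzymes varied little between arrays. Their residual SD, the spread of log2 values around the group means, was between 0.0651 (Hadha) and 0.264 (Cpt2), with a median of 0.151, beside a median of 0.271 over all genes. The enzymes were not dim, and spread was not compared among genes of like brightness. This is therefore a description and not a comparison of like with like. The highest array exceeded the lowest by 1.25-fold for Acadl and by 1.66-fold for Cpt2, the extremes among the enzymes. Dimmer probe sets of Acadl, Cpt2 and Hadhb ranged further, by 8.96-fold, 2.13-fold and 1.81-fold.

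Ppara, the receptor, was dim on all arrays. It had intensities of 71.1, 37.1 and 38.7 on the WT arrays A, B and C and 44, 33.9, 57.8 and 49.1 on the T-ETV1 arrays A, B, C and D. WT A was the highest array, and the other WT arrays lay among those of T-ETV1. The log2 difference was -0.04 ± 0.22 (limma adjusted p = 0.990). Its other probe sets, also dim, had -0.44 ± 0.26 and 0.13 ± 0.30, so they did not share a sign. At this low signal the 95% confidence interval of the brightest probe set, from -0.57 to 0.49, includes no change as well as changes in either direction.

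Pdk4, the kinase that turns off pyruvate dehydrogenase, differed widely between arrays of the same group. It had 905, 1156 and 3110 on the WT arrays A, B and C and 98.7, 249, 3024 and 867 on the T-ETV1 arrays A, B, C and D. Array C was the highest in each group and the groups overlapped, while T-ETV1 A and B were the lowest of all. The log2 difference was -1.49 ± 1.13, from 10.55 ± 0.93 (SD, n = 3) to 9.06 ± 2.06 (SD, n = 4) (limma adjusted p = 0.883). Its 95% confidence interval, from -4.19 to 1.21, includes no change as well as large changes. Between arrays of the same letter, WT was 9.17-fold above T-ETV1 for A, 4.64-fold for B and 1.03-fold for C. T-ETV1 D has no partner. The residual SD of Pdk4 was 1.70, and 1.49% of all genes had a larger one. Single arrays moved the difference: it was -2.32 without T-ETV1 C (unadjusted p = 0.0355, adjusted p = 0.465), -0.96 without WT C and -0.75 without T-ETV1 A. Without both arrays C it was -1.79 (adjusted p = 0.638).

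Markers of other cell types moved with Pdk4 in part. The 8 basal cell markers summed to 9765, 17134 and 24347 on the WT arrays A, B and C and to 3642, 4272, 21030 and 4859 on the T-ETV1 arrays A, B, C and D. They were thus highest on array C of each group and lowest in T-ETV1 A and B, as Pdk4 was. In T-ETV1 D, however, the basal sum (4859) was near those of T-ETV1 A and B and below WT A (9765). Pdk4 had 867 in T-ETV1 D and 905 in WT A. The 10 endothelial markers summed to between 1403 and 6181 in WT and 268 and 2030 in T-ETV1, with C the highest of each group but T-ETV1 D, and not A, the lowest. The 9 fibroblast markers summed to between 6368 and 29737 in WT and 3984 and 9838 in T-ETV1, and the 8 smooth muscle markers to between 663 and 5869 and between 160 and 892, again with C the highest of each group. For endothelial, fibroblast and smooth muscle markers WT B (2244, 11859 and 1633) lay above T-ETV1 C (2030, 9838 and 892), which was not so for Pdk4. The macrophage sums above were highest on the C arrays, but in T-ETV1 A, where Pdk4 was lowest, the sum of 653 was above those of WT A (246) and WT B (344). The 8 leukocyte markers summed to between 6941 and 12181 in WT and 5881 and 9685 in T-ETV1, with T-ETV1 B at 9233 above WT A and WT B, and Cd4 stayed under an intensity of 100. Of the 6 adipocyte markers measured, 5 (Adipoq, Lep, Retn, Cidec and Plin4) stayed under 100 on all arrays, as did 7 of the 8 striated muscle markers. The adipocyte markers summed to 134, 319 and 1725 on the WT arrays A, B and C. On the T-ETV1 arrays A, B, C and D they summed to 85, 62, 607 and 714. They were thus highest in WT C and lowest in T-ETV1 A and B, as Pdk4 was, but T-ETV1 D lay above T-ETV1 C. The 6 seminal vesicle markers did not follow Pdk4: they summed to between 36324 and 42463 in WT and 42593 and 52710 in T-ETV1, with T-ETV1 B the highest. The part of these cells in the level of Pdk4 was not tested.

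The genes nearest to Pdk4 in pattern were looked for over all 7 arrays, by the root mean square distance between log2 values centred on each gene's mean. They were Ets1 (0.357), which encodes another ETS transcription factor, Syde1 (0.464), Adh7 (0.5), an alcohol and retinol dehydrogenase, and Akap12 (0.503), a scaffold protein of protein kinase A. Ets1 had intensities of 239, 612 and 1486 on the WT arrays A, B and C and 35.8, 76.2, 818 and 286 on the T-ETV1 arrays A, B, C and D. Like Pdk4 it was highest on array C of each group and lowest in T-ETV1 A. The same search for the members with the next largest ranges gave Ttc39d, Arl2, Plcb4 and Lrrc75a for Ppara (distances of 0.0711 to 0.092) and Nol12, Slc34a2, Tma16 and Rab3gap2 for Cpt2 (0.0537 to 0.0788). None of the 8 is a member or on a pathway list used here. These distances describe likeness over 7 arrays only.

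**Figure D3:**
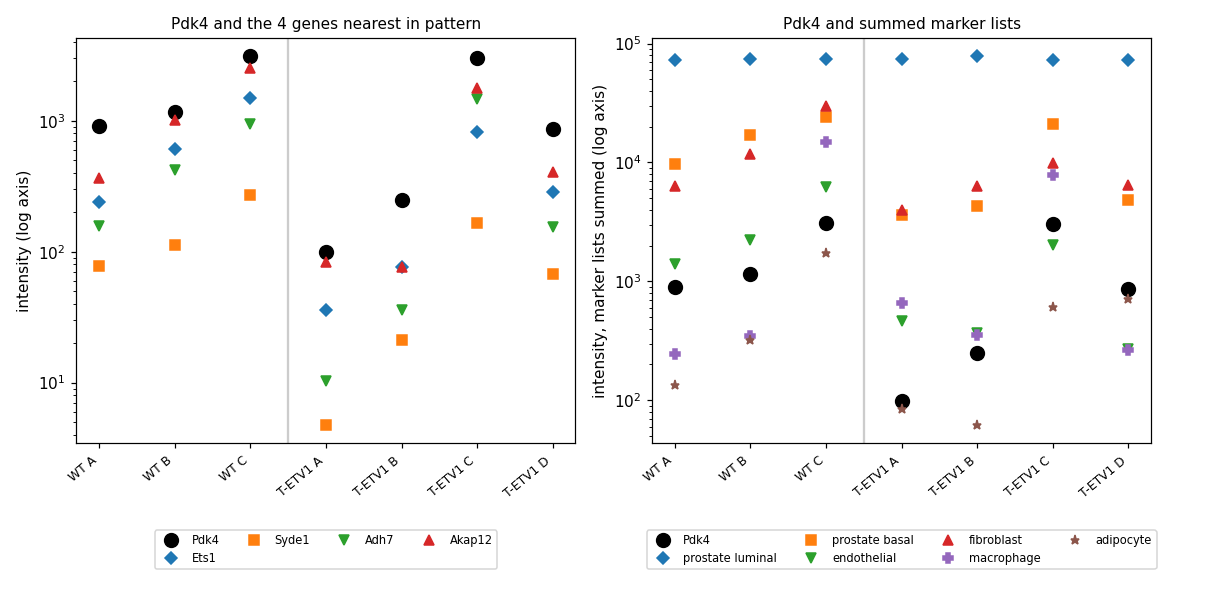
Left, intensities (log axis) of Pdk4 and the 4 genes nearest to it in pattern on each array; right, Pdk4 beside the summed intensities of 6 marker lists. Pdk4 is at 3110 in WT C and 3024 in T-ETV1 C and at 98.7 in T-ETV1 A, while the luminal sum stays between 72402 and 78302.

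Of 88 further genes on 8 lists of the pathway and its control, 0 passed the limma test. At an unadjusted p under 0.05, 3 were higher (Crot, Amacr and Pdk2) and 1 lower (Slc22a5) in T-ETV1, where 2.00% of all genes were higher and 4.12% lower at that limit. Their median difference was 0.03, and 48 had a higher and 40 a lower mean (57 and 31 after quantile normalization, 66 and 22 after median centring). The counts below are for the deposited scaling.

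In carnitine import and acyl-CoA activation, 4 of 8 genes had a higher and 4 a lower mean (median 0.01). Slc22a5, the plasma membrane carnitine transporter, had 958, 816 and 932 on the WT arrays A, B and C and 751, 655, 627 and 764 on the T-ETV1 arrays A, B, C and D. All T-ETV1 arrays lay below all WT arrays, as in 3.90% of all genes, at a log2 difference of -0.36 ± 0.12 (limma adjusted p = 0.758). The groups overlapped after either other scaling. Slc25a20, which carries acylcarnitine across the inner membrane, had 0.11 ± 0.13, the acyl-CoA synthetase Acsl3 0.22 ± 0.25 and the brain-type Cpt1c -0.22 ± 0.18. Cpt1b and Acsl1 were not analysed here.

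Among the other mitochondrial beta-oxidation genes 8 of 14 had a higher mean, with a median of 0.06. Decr1, a reductase for unsaturated chains, had 0.21 ± 0.13, but a further probe set of opposite sign, and 0.07 with its probe sets averaged. Etfdh and Etfa, which pass electrons from the dehydrogenases to ubiquinone, had 0.19 ± 0.14 and -0.16 ± 0.14. Averaged over its probe sets Etfdh had 0.80 ± 0.30 (unadjusted p = 0.0349). Acad9, a dehydrogenase also needed to assemble complex I, had 0.49 ± 0.32, but its other probe sets had the opposite sign, and the average of all 3 was -0.11. In the main fit the adjusted p of these genes was 0.876 or higher, and that of the Etfdh average was 0.786.

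In the peroxisome, where very long and branched chains are shortened, 10 of 14 genes had a higher mean in T-ETV1. The median was 0.17, beside -0.03 over all genes. It was 0.20 beside 0.02 after quantile normalization, and 0.31 beside 0.11 after median centring. Crot, which makes carnitine esters of shortened chains for export from the peroxisome, had the smallest p of all 88. It had 1374, 1246 and 1196 on the WT arrays A, B and C and 1701, 1612, 1697 and 1749 on the T-ETV1 arrays A, B, C and D. Every T-ETV1 array lay above every WT array, under all 3 scalings. The log2 difference was 0.41 ± 0.10 (unadjusted p = 0.00447, limma adjusted p = 0.628). A second Crot probe set had the opposite sign, and the mean of both gave 0.09. Groups apart with T-ETV1 higher were found in 440 of all genes (2.42%) as deposited. The share of all genes was 3.79% after quantile normalization and 5% after median centring. Amacr, the racemase for branched chains, had 183, 268 and 179 in WT and 301, 246, 368 and 289 in T-ETV1. T-ETV1 B lay below WT B, and the difference was 0.50 ± 0.19 (adjusted p = 0.801). Phyh, which starts the breakdown of phytanic acid, had 0.17 ± 0.12, and the thiolase Acaa1a 0.17 ± 0.13, though its probe set may also read the near-identical Acaa1b and a second one had the opposite sign (0.04 when averaged).

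Of the enzyme complex that Pdk4 inhibits and its regulators, 6 of 11 genes had a higher mean (median 0.01). Pdk2, a kinase of the same family, had 718, 589 and 754 on the WT arrays A, B and C and 798, 896, 904 and 1036 on the T-ETV1 arrays A, B, C and D. All T-ETV1 arrays lay above all WT arrays, under all 3 scalings, with a log2 difference of 0.40 ± 0.14 (limma adjusted p = 0.772). The shares of all genes given for Crot hold for Pdk2 as well. Of the other named genes, Acaa1a and Lpin1 were also apart in this direction after quantile normalization. After median centring Decr1, Etfdh, Amacr, Acaa1a and Pdk3 were. Where Pdk4 was lowest in T-ETV1 A and B, Pdk2 was lowest in WT B and highest in T-ETV1 D. The further kinase Pdk3 had 0.14 ± 0.10, and Dld, the shared dehydrogenase subunit, -0.17 ± 0.11 (-0.08 with its probe sets averaged). Pdk1 had 0.45 ± 0.26, but 2 of its 4 probe sets had the opposite sign and their average gave 0.07. Its difference was 0.17 without WT A and 0.72 without WT C.

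Of the partners and coactivators of Ppara 5 of 9 had a higher mean (median 0.04). Ppargc1a, the coactivator of mitochondrial genes, had 195, 330 and 439 in WT and 407, 1044, 683 and 238 in T-ETV1. The groups overlapped, and the difference was 0.72 ± 0.52 (limma adjusted p = 0.881). Pparg was dim, at 8.95 to 56 in WT and 13.5 to 201 in T-ETV1 (0.98 ± 0.72). Lpin1 had 0.18 ± 0.11 and Rxra, the partner receptor, -0.31 ± 0.35, which was -0.02 without WT C and -0.70 without WT A. Of the PPAR alpha targets outside oxidation 6 of 14 had a higher mean (median -0.04, but 0.07 after quantile normalization and 0.10 after median centring). Plin2, the coat protein of lipid droplets, had 0.50 ± 0.51. Cyp4a14 and Fabp1 were near the lowest intensities of the arrays (0.31 ± 0.23 and 0.14 ± 0.12). Vnn1 had -1.81 ± 1.23, which came from WT A at 5815 beside 66.3 to 304 on the other 6 arrays.

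In the control by malonyl-CoA and AMP-activated kinase, 6 of 9 genes had a higher mean (median 0.04). Acaca, the cytosolic acetyl-CoA carboxylase, had 0.43 ± 0.29, and Acacb, the form at the mitochondrion that makes the inhibitor of Cpt1a, -0.87 ± 0.75. Acacb was highest on array C of each group, at 257 and 297, and lowest in T-ETV1 B at 14.6. Without T-ETV1 B its difference was -0.31 and without T-ETV1 C -1.43. The kinase subunits Prkag2 and Prkag1 had -0.59 ± 0.39 and 0.08 ± 0.10, and for Prkag2 3 of 4 probe sets had the opposite sign. Its difference was -0.93 without T-ETV1 C (limma unadjusted p = 0.00432, adjusted p = 0.243) and -0.37 without T-ETV1 D. In fatty acid uptake and lipolysis 3 of 9 genes had a higher mean (median -0.20), among them the uptake protein Slc27a2 at 1.01 ± 0.61. WT A was its lowest array, at 47 beside 157 to 605, and the difference was 0.39 without WT A and 1.52 without WT B. The hormone-sensitive lipase Lipe had -0.52 ± 0.25, Slc27a1 -0.31 ± 0.16 and Abhd5, an activator of triglyceride lipase, -0.34 ± 0.21. Each of these 3 had a probe set of opposite sign, and with the probe sets averaged they had -0.09, -0.04 and -0.11. Slc27a1 had -0.44 without T-ETV1 C (limma unadjusted p = 0.00758, adjusted p = 0.291) and -0.24 without T-ETV1 D. None of these passed, with adjusted p-values of 0.835 or higher in the main fit.

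**Figure D4:**
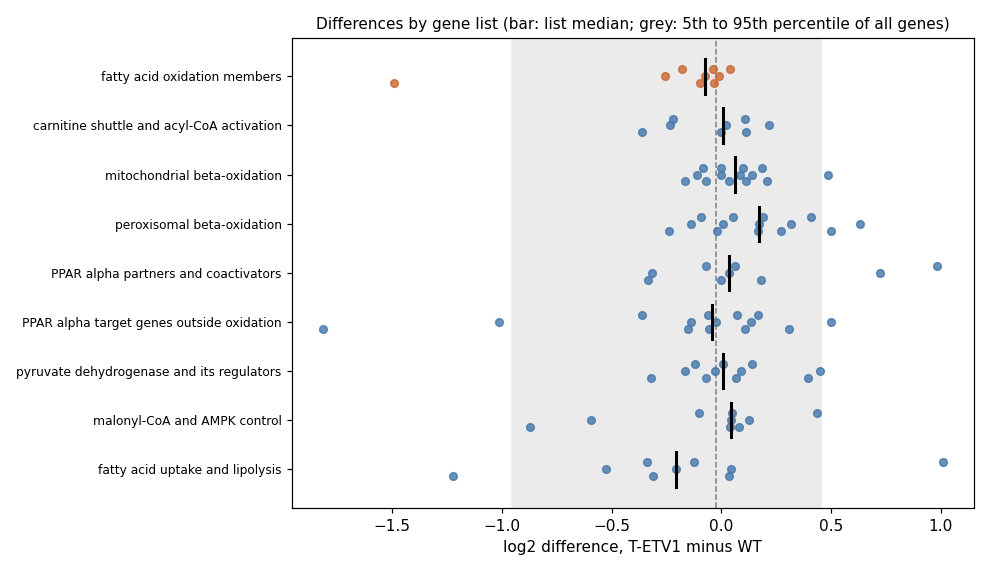
Log2 difference, T-ETV1 minus WT, of each measured gene of the 9 fatty acid oxidation members and of 8 further lists; black bars are list medians, the dashed line is the median of all genes and the grey band holds their 5th to 95th percentile. The members other than Pdk4 lie between -0.26 and 0.04, and the peroxisomal list has the highest median, 0.17.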

How the data were processed

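The deposited table holds 1 intensity per probe set and array, on a linear scale, for 45037 probe sets. How the authors summarised probes and scaled arrays is not stated in the labels. Array medians of log2(intensity + 16) differed by at most 0.476, under the limit of 0.5 for rescaling. The platform annotation gave 1 symbol for 34945 probe sets, several for 932 and none for 9160, and 34741 probe sets took their symbol from RefSeq's gene table (GRCm38.p6) by Entrez ID. The brightest probe set, by its mean over 7 arrays, stood for its gene. A pseudocount of 16 understates differences of dim genes.

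Tests used limma 3.58.1 (R 4.3.3; lmFit, eBayes, 6.67 total degrees of freedom, two-sided) with Benjamini-Hochberg adjustment over all 18193 genes and a threshold of 0.05. The code was tested on simulated data, with differences larger than those of the enzymes and placed in genes of below-median spread. Recovery of small differences, or in genes of large spread, was not tested. The number of arrays limits the precision. The members, lists and tests were chosen with earlier results of these data known. Named are all members, the 4 genes with the smallest p of each pathway list and, for the 3 members with the largest range, the 4 nearest genes, leaving out predicted ones.

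Both groups have arrays named A to C. Deviations from the group means correlated at 0.281 (A), 0.217 (B) and 0.356 (C) between arrays of like letter, all over 0.1. The letters may thus pair the arrays, but no pairing is stated. The differences, standard errors and limma p-values given above are from the fit without pairing, unless another is named. A fit with the letters as a replicate block was run as an alternative. The unlike pair of WT A and T-ETV1 D reached 0.187.

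The alternatives changed the scaling (quantile, median), the pseudocount (1, 64), the filter (without the dimmest 30% or 50%), the choice of probe set (their mean, or each alone) and eBayes (trend, robust). They further added the replicate block and left out each array in turn. Leaving out both arrays C was chosen after seeing the data.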

Additional observations from a re-analysis of the deposited data

Results flagged for a closer look

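Among the 41 named genes checked over the 4 T-ETV1 arrays, 1 value stood far from the others of its group. Acadvl had an intensity of 2231 in T-ETV1 C, beside 1791, 1755 and 1759 in T-ETV1 A, B and D. The gap was 0.915 of the range of the group. Chance alone gives such a value in about 1 of 20 groups, or 2.05 of 41.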

How the results depend on the processing

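No member was called under any alternative run. The number of genes called over the whole array was 0 under all of them but those without an array C: leaving out single arrays gave 0 to 27 genes (7 without WT C, 27 without T-ETV1 C), and leaving out both arrays C gave 68. With the replicate block, which leaves out T-ETV1 D, 0 genes passed, so the block changed no call. It did move standard errors and unadjusted p-values. Pdk4 had -1.73 ± 0.64 (limma unadjusted p = 0.0569, adjusted p = 0.706). Ppargc1a (1.08 ± 0.24), Slc27a2 (1.13 ± 0.27), Lipe (-0.58 ± 0.15) and Pparg (0.55 ± 0.19) came under an unadjusted p of 0.05. Their adjusted p-values were 0.555 or higher. Amacr and Pdk2 rose above that limit, to an unadjusted p of 0.128 and 0.0997. Of 170 values of the 9 members under alternatives 19 turned sign, all of members with a main difference between -0.10 and 0.04; the cause was not tested. After median centring these were Cpt2 (0.10), Acadl (0.06), Acadvl (0.04), Hadhb (0.13) and Ppara (0.10), and after quantile normalization Cpt2 (0.05), Hadhb (0.01) and Ppara (0.08). Cpt2 also turned when its probe sets were averaged (0.13) and with the replicate block (0.09), and Hadhb without both arrays C (0.04). Leaving out single arrays, Cpt1a ranged from -0.09 to 0.12, Cpt2 from -0.14 to 0.09, Hadhb from -0.11 to 0.10 and Ppara from -0.16 to 0.19. Of the other 32 named genes 3 turned: Acad9 (-0.11) and Prkag2 (0.01) with the mean of the probe sets, and Acsl3 without WT C (-0.03 to 0.36 over the arrays left out). Acadm, Hadha and Pdk4 kept a lower mean in T-ETV1 under all alternatives. Signal near the lowest intensities limits what can be said of Ppara.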
